A study of Mus musculus with 7 samples.

Results

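Krüppel-like factors are zinc-finger transcription factors that bind GC-rich and CACCC-type DNA, and the loci of 10 genes of this family were examined for binding of the glucocorticoid receptor (NR3C1). A locus was everything within 100 kb of the approximate start of Klf15, Klf9, Klf13, Klf6, Klf4, Klf2, Klf5, Klf10, Klf7 or Klf3 on the mm9 mouse genome. The bounds of each locus were set by position alone, but the 10 genes were picked with earlier results of these data known. Receptor positions came from chromatin immunoprecipitation and sequencing (ChIP-seq) of mouse embryonic fibroblasts with an in-house antibody, deposited as 1 list of peak summits for each of 7 libraries. A summit is the single base where a peak is highest. Summits of all lists were joined into sites where neighbours lay at most 200 bp apart, and a list held a site if it had a summit in it. The loci held 65 of the 35316 sites and 174 of the 98170 summits of the series.

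All cells had 1 h of treatment. Wild-type cells received ethanol vehicle (1 library, pooled because material was short) or dexamethasone, a synthetic glucocorticoid (2 libraries). Klf15-/- cells, mutant in both copies of Klf15, received vehicle (2 libraries) or dexamethasone (2 libraries). The labels name neither the Klf15-/- allele nor separate cultures, so the spread between libraries may be technical. They describe the fibroblasts as cells grown from embryos, and a list of binding positions holds no markers that could test the cell type or the genotype.

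Glucocorticoids act through a receptor that, once bound by hormone, enters the nucleus and binds DNA at glucocorticoid response elements. Some Krüppel-like factor genes are themselves known hormone targets: Klf15 and Klf9 are textbook glucocorticoid-induced genes. KLF15 controls amino acid and lipid metabolism, and KLF9 is a repressor also known for its response to thyroid hormone.

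The lists held 7325 to 20169 summits, and the read depth behind them is unknown. Each summit carries the authors' peak score, which was used only as a percentile within its own list (0 lowest, 100 highest). Ranks in lists of different lengths do not show a change in binding. The first Klf15-/- vehicle list stood apart, with 414 summits less than 200 bp from the one before, where no other list had over 4, and with 29.4% of its sites in no other list. No pair of lists shared more than 0.688% of the shorter list's positions exactly, so none was a copy of another.

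The promoters of the 3 genes on which the results turn most are printed here: Klf13, Klf9 and Klf15. Klf13 and Klf9 reached the highest percentiles in any 1 list, and Klf15 is the gene mutated in the Klf15-/- cells. Ranked by the dexamethasone list where each stood lowest, a Klf7 site (90.8) was above every Klf9 site (87.0 at most). Each printed promoter is the 250 bases before the annotated start, from RefSeq on GRCm38, a different build from the mm9 summits. They lie at chr7:63938916-63939165 (minus strand), chr19:23140976-23141225 (plus strand) and chr6:90462326-90462575 (plus strand). Capitals mark CACCC on either strand, a motif that Krüppel-like factors recognise.
Klf13: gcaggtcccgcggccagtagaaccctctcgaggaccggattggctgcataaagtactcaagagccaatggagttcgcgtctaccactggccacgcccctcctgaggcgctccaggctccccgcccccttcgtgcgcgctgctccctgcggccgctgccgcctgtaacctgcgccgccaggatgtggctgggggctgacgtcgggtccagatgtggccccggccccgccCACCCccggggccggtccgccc
Klf9: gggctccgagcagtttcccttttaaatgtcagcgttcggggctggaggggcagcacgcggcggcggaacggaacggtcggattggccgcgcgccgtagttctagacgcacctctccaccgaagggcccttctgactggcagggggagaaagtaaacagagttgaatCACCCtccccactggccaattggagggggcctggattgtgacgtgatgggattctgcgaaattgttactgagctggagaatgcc
Klf15: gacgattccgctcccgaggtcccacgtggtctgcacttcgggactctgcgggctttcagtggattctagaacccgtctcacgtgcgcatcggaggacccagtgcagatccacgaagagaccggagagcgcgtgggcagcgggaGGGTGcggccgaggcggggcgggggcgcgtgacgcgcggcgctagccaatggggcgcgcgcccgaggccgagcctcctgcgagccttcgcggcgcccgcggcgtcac

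RefSeq promoters were at hand for 8 of the 10 genes, all but Klf5 and Klf10. The core of the glucocorticoid response element, ACANNNTGT, which reads the same on both strands, was in 0 of these 8 stretches, against 5.84% of all 32851 promoters of the table. CACCC was in 6 of the 8, against 52.0% of all promoters, and was missing from those of Klf4 and Klf6. A missing match says only that these letters are not in these 250 bases. The DNA under the summits was not analysed here.

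Receptor summits near the Krüppel-like factor genes made up about double the share of the lists after dexamethasone. Per 1000 summits of a list, the loci held 2.11 and 2.19 in wild-type cells and 2.00 and 1.88 in Klf15-/- cells after dexamethasone. The vehicle lists held 1.10 (wild type), 0.683 and 1.24 (Klf15-/-). All dexamethasone lists were above all vehicle lists, and the genotypes' ranges did not overlap after dexamethasone but did with vehicle (no test of 2 lists against 2 can pass 0.05). The mean was 2.05 ± 0.13 (SD, n = 4 dexamethasone lists) against 1.005 ± 0.29 (n = 3 vehicle lists), a difference of 1.04 (exact two-sided permutation test, p = 0.0571, the smallest that 4 lists against 3 allow). A p below 0.05 could not be reached. Within each genotype the means were 2.15 ± 0.05 (n = 2) against 1.10 in wild type and 1.94 ± 0.08 (n = 2) against 0.959 ± 0.39 (n = 2) in Klf15-/-.

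**Figure D1:**
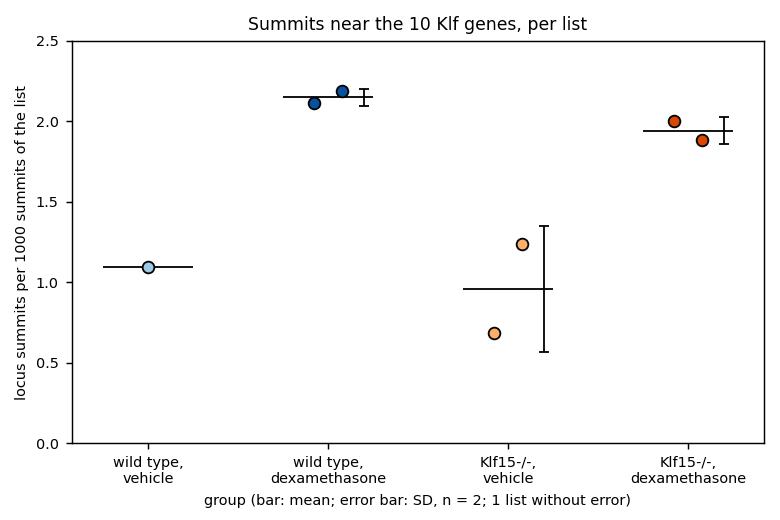
Summits within 100 kb of the 10 Klf gene starts per 1000 summits of the list (vertical axis), for each of the 4 groups. Points are lists, lines are means and error bars are the SD of 2 lists; the dexamethasone lists sit between 1.88 and 2.19 and the vehicle lists between 0.683 and 1.24.

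The order of the lists differed between loci. At Klf15, Klf9, Klf6 and Klf7, every dexamethasone list had more summits per 1000 than every vehicle list, which makes 4 of 10 loci. Among all 13212 windows of 200 kb along the genome, 6.55% had this order. Without the first Klf15-/- vehicle list, the loci with this order numbered 5, Klf5 being the addition, against 7.88% of the windows. At Klf13, Klf4, Klf2, Klf5, Klf10 and Klf3 the dexamethasone and vehicle lists overlapped. No count here is matched for gene density: the windows include stretches with few genes, and 36.7% of them held no site.

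**Figure D2:**
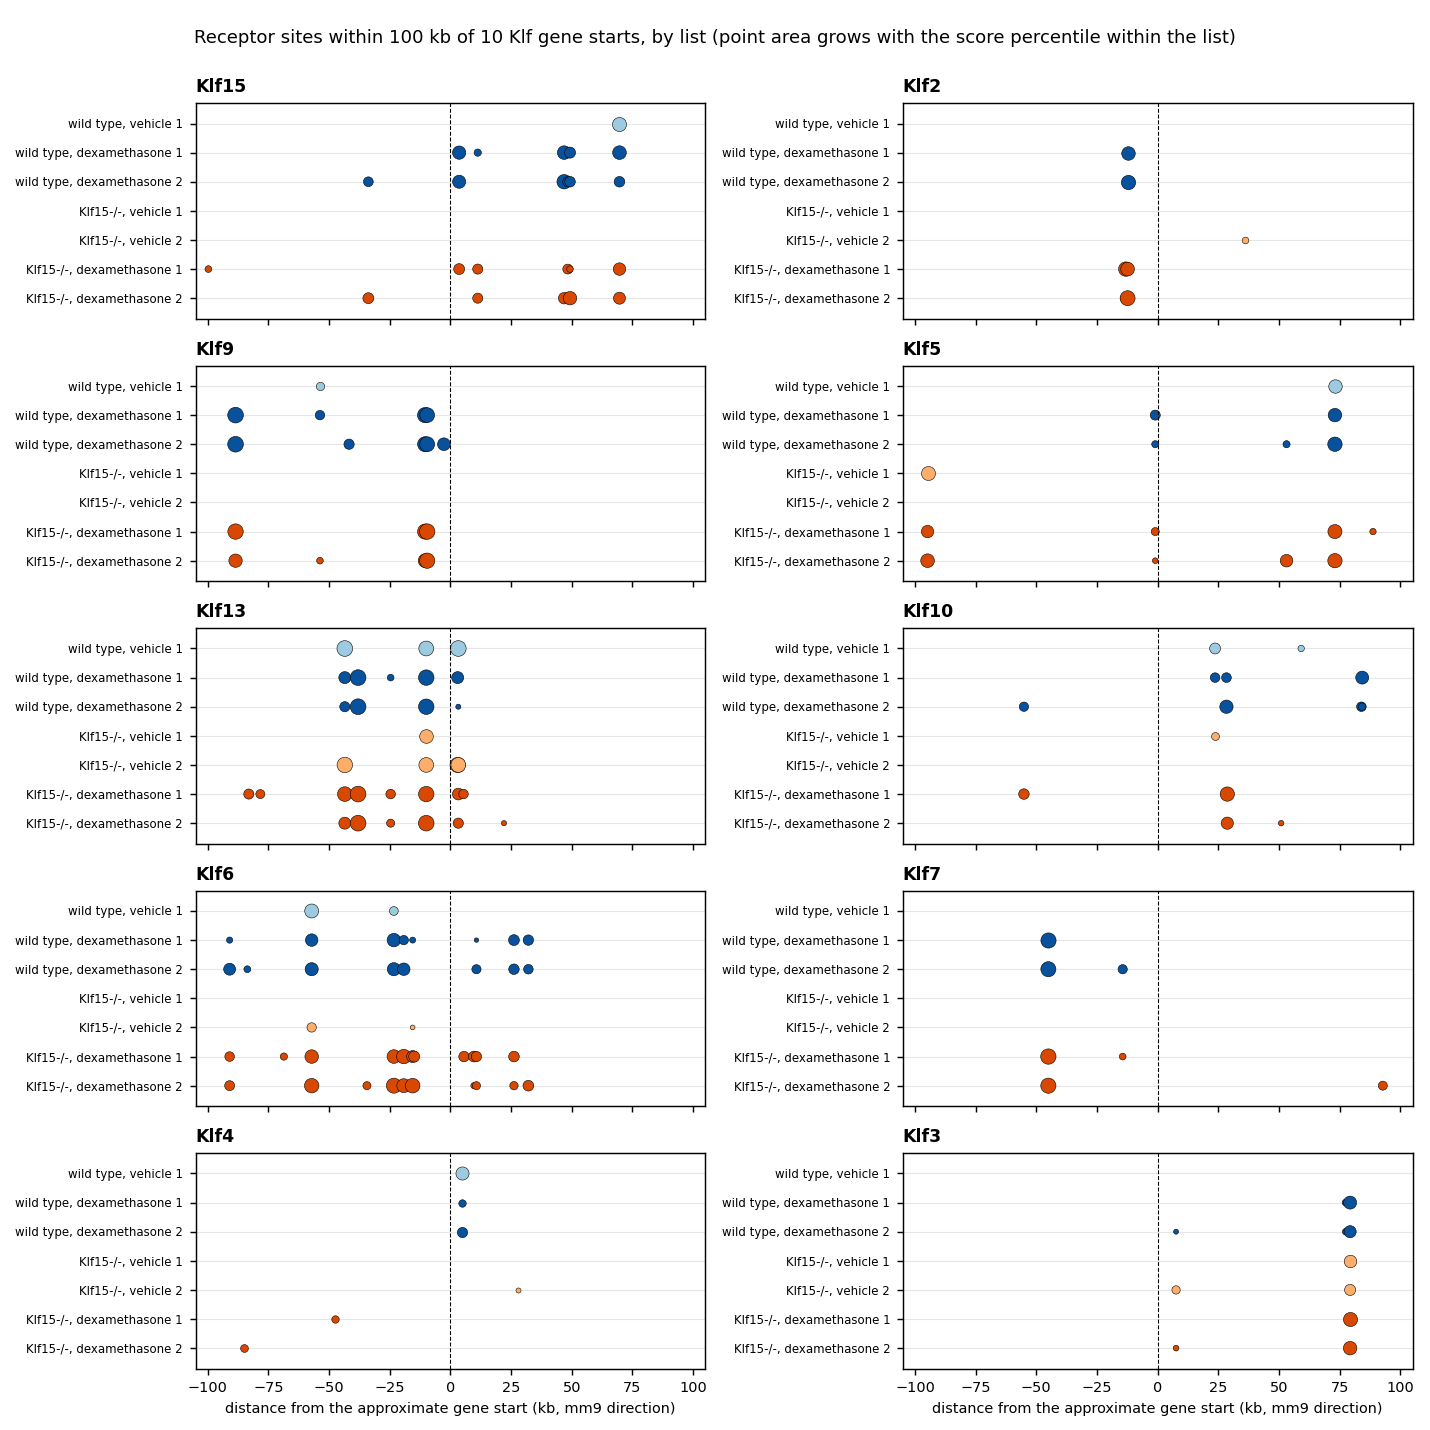
Position of each receptor site (horizontal axis, kb from the approximate gene start, increasing with the mm9 coordinate) in each of the 7 lists (rows) at the 10 loci. Point area grows with the score percentile in that list; the vehicle rows are empty at Klf7, and those of Klf15-/- are also empty at Klf15 and Klf9.

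Sites held after dexamethasone alone were counted next; at an unknown depth, absence from a vehicle list is not evidence that the receptor was absent. At the loci, 18 of 65 sites (27.7%) were in both wild-type dexamethasone lists and in no vehicle list, against 13.2% of all sites of the genome. In Klf15-/- cells the count was 17 of 65 (26.2%), against 18.2%; leaving out the first Klf15-/- dexamethasone list gave 26 and leaving out the second 30, since a lone list need not be repeated. Both genotypes shared 12 of these sites (18.5%, against 7.85%), which were spread over 7 of the 10 loci. Klf4, Klf10 and Klf3 had none. A site of this shared kind was present in 15.4% of all 200 kb windows.

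All 4 dexamethasone lists held 19 of the 65 sites (29.2%), against 25.4% of all sites, at 8 of the 10 loci. Such a site was present in 32.9% of all windows. A vehicle summit was present at 7 of these 19 sites (36.8%), against 69.1% across the genome. These counts were also 7 of 19 without the first Klf15-/- vehicle list, against 67.6% across the genome. Another 22 of the 65 sites (33.8%, against 38.7%) were in 1 list alone. Sites held by all 7 lists, vehicle included, numbered 1 (1.54%, against 6.22%), at Klf13. Sites in all remaining lists numbered 3 without the first Klf15-/- vehicle list and 2 without the wild-type vehicle list.

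**Figure D3:**
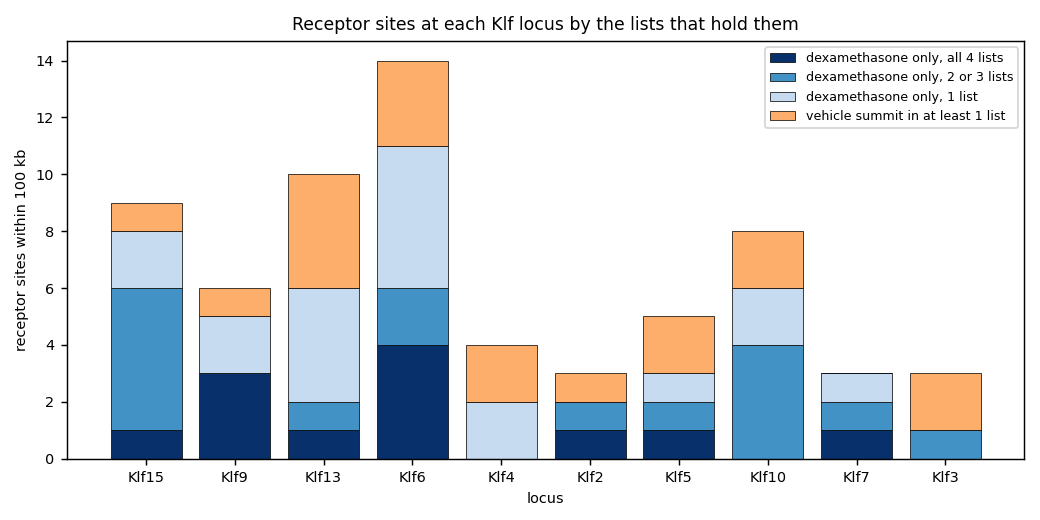
Number of receptor sites within 100 kb of each gene start (vertical axis), stacked by the lists that hold them. Klf6 has the most sites, 14, of which 4 were in all 4 dexamethasone lists and no vehicle list. A vehicle summit was present at 18 of the 65 sites. The share over all sites of the genome is not given here, so this count has no background.

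At Klf13, which encodes a repressor closely related to KLF9, lay one of the highest-ranked dexamethasone-only sites of the genome. It ran from 71041939 to 71041979 on chromosome 7, 38.1 kb downstream of the gene start. The wild-type lists ranked it at percentiles 99.87 and 99.95 and the Klf15-/- lists at 99.96 and 99.97. No vehicle list held it, and the nearest vehicle summit was 5418 bp away. Of the 2774 shared dexamethasone-only sites of the genome, it was the second by the list where it ranked lowest. On RefSeq's GRCm38 annotation Klf13 is 52.6 kb long, so this distance is shorter than the gene; whether the site is in an intron is not analysed here.

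The site held by all 7 lists was also at Klf13, from 71070026 to 71070148, 9.97 kb downstream of the start. Its percentiles were 96.05 and 95.85 in the wild-type and 95.1 and 98.3 in the Klf15-/- dexamethasone lists. The vehicle lists had 87.5 (wild type), 72.9 and 86.5 (Klf15-/-). It thus ranked high in every list, and lower in each vehicle list than in any dexamethasone list.

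Other Klf13 sites ranked higher with vehicle. The site at 71036476 to 71036597 stood at 99.2 in the wild-type vehicle list and 96.8 in the second Klf15-/- vehicle list. After dexamethasone it stood at 54.7 and 36.9 in wild-type cells and 84.9 and 54.2 in Klf15-/-. A site near the gene start, at 71083235 to 71083299, was likewise at 98.9 and 87.0 in the same vehicle lists. In the dexamethasone lists it was at 2.89 in the second wild-type list, 51.9 and 37.0 in Klf15-/-, and absent from the first wild-type list. The first Klf15-/- vehicle list lacked both sites. A neighbouring site at 71082969 to 71082986 was in the second Klf15-/- vehicle list (93.7) and the first wild-type dexamethasone list (54.7). Of the remaining 5 Klf13 sites, the one at 71055357 to 71055432 was in 3 dexamethasone lists, at 11.0 in wild-type cells and 31.7 and 20.4 in Klf15-/-. The other 4 were in 1 Klf15-/- dexamethasone list each, at percentiles from 3.40 to 36.2 and at 70996917, 71001663, 71085386 and 71102049.

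Klf9 had 3 sites that all 4 dexamethasone lists held and no vehicle list did. A pair of them lay side by side upstream of the gene start. The nearer, from 23210407 to 23210446 on chromosome 19, was 9.59 kb upstream, ranked at 87.0 and 88.7 by the wild-type and 96.1 and 93.8 by the Klf15-/- lists. The farther, from 23209553 to 23209633, was 10.4 kb upstream, at 92.4 and 89.9 in wild-type cells and 91.8 and 74.0 in Klf15-/-. All of these percentiles but the 74.0 were at or above 87.0, and no vehicle summit was closer than 43317 bp to either site.

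The remaining shared Klf9 site, from 23131456 to 23131514, was 88.5 kb upstream. It stood at 99.2 and 99.0 in wild type and at 95.0 and 69.5 in Klf15-/-, so both wild-type lists ranked it above both Klf15-/- lists. Among sites in all 4 dexamethasone lists this order was found at 1 of 19 here and at 20.2% across the genome. The annotated neighbour of Klf9 within 100 kb is Smc5, a chromosome maintenance gene, and a site this far from either gene start is not assigned to a gene. The site at 23166236 to 23166294 ranked low with and without hormone, at 21.7 in the wild-type vehicle list, 30.6 in the first wild-type and 10.9 in the second Klf15-/- dexamethasone list. The second wild-type dexamethasone list alone held 23178228 (37.6) and 23217302 (62.1).

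At Klf15, the gene mutated in the Klf15-/- cells, receptor sites were held after dexamethasone in both genotypes. The locus held 9 sites, and its summits numbered 6 and 6 in the wild-type and 6 and 5 in the Klf15-/- dexamethasone lists. The wild-type vehicle list held 1 and the Klf15-/- vehicle lists 0. The dexamethasone and vehicle lists did not overlap in number.

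A pair of Klf15 sites lay downstream of the start at distances shorter than the 30.8 kb that RefSeq gives the gene on GRCm38. The site at 90413584 to 90413606 on chromosome 6, 3.58 kb downstream of the start, was at 68.7 and 66.3 in wild type, at 43.6 in the first Klf15-/- dexamethasone list and absent from the second. The site at 90421242 to 90421378, 11.2 kb downstream, was at 14.7 in the first wild-type list, absent from the second, and at 36.20 and 36.05 in Klf15-/-. Neither had a vehicle summit. The Klf15-/- lists therefore hold summits in the neighbourhood of the gene, and which bases the allele lacks is not given in the sources used here.

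Farther out, 4 sites lay 46.2 to 49.3 kb downstream of the Klf15 start. The one at 90459267 to 90459309 was in all 4 dexamethasone lists, at 45.0 and 40.9 in wild-type cells and 10.4 and 70.2 in Klf15-/-. The one at 90456851 to 90456932 was at 72.3 and 82.7 in wild type, absent from the first and at 49.2 in the second Klf15-/- list. The site at 90458323 was in 1 list of each genotype (35.6 and 34.4), and that at 90456169 in the first wild-type list alone (0.42). A site at 90479643 to 90479771, 69.6 kb downstream, was at 78.0 in the wild-type vehicle list, at 73.2 and 40.8 in wild type with dexamethasone and at 59.3 and 54.7 in Klf15-/-. Upstream, 90376169 to 90376208 was in 1 list of each genotype (33.3 and 43.7) and 90310259 in the first Klf15-/- list alone (11.5). RefSeq places 4 other protein-coding genes within 100 kb of Klf15, namely Uroc1, Zxdc, Cfap100 and Aldh1l1, and no site is assigned to a gene here.

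Klf6, an early-response gene of many cell types, had more sites than any other of the loci, 14. Of all 200 kb windows, 1.43% held as many or more. The highest-ranked were a group upstream of the start on chromosome 13. The site at 5836682 to 5836786, 23.3 kb upstream, was at 71.2 and 67.2 in wild-type cells and 72.8 and 90.7 in Klf15-/- after dexamethasone, and at 25.4 in the wild-type vehicle list. The site at 5840767 to 5840830, 19.2 kb upstream, had no vehicle summit and stood at 29.9 and 59.6 in wild-type cells and 82.9 and 76.1 in Klf15-/-. The site at 5802825 to 5803067, 57.2 kb upstream, was at 59.7 and 66.8 in wild-type cells and 71.4 and 83.2 in Klf15-/-, with vehicle at 76.6 in the wild-type and 29.7 in the second Klf15-/- list.

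All 3 of these Klf6 sites ranked higher in both Klf15-/- lists than in both wild-type lists. Among sites in all 4 dexamethasone lists, 6 of 19 at the loci had this order (31.6%), against 33.8% across the genome, so the share was near the background. The others with it were the 9.59 kb Klf9 site, the 38.1 kb Klf13 site and a Klf3 site.

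The site at 5844420 to 5844538 near Klf6 was at 7.26 in the first wild-type dexamethasone list, at 54.5 and 84.9 in Klf15-/- and at 1.36 in the second Klf15-/- vehicle list. Another 3 sites were in all 4 dexamethasone lists without a vehicle summit, at 5769020, 5870707 and 5886164, with percentiles from 0.0064 to 53.9. The site at 5892104 to 5892346 was in 3 of them, at 38.6 and 31.8 in wild-type cells and 42.2 in the second Klf15-/- list. The remaining 6 Klf6 sites were at 5776304, 5791364, 5825590, 5845065, 5865581 and 5869645, with percentiles from 7.92 to 44.4. The first 5 of these were in 1 dexamethasone list each. RefSeq gives no other protein-coding gene within 100 kb of Klf6.

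Klf7, a gene known from neuronal development, had 1 high-ranked site and little else. From 64134972 to 64135041 on chromosome 1, it lay 45.0 kb downstream of the start, a distance shorter than the 92.9 kb of the gene on GRCm38. The wild-type lists placed it at 92.5 and 90.8 and the Klf15-/- lists at 94.3 and 92.1, so the genotypes overlapped, and the nearest vehicle summit was 93185 bp away. Of the 2774 shared dexamethasone-only sites it was number 215. The other Klf7 sites, at 64165594 and 64272771, were in at most 1 list of each genotype, at percentiles from 11.3 to 29.1.

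Klf2, which is known for its part in endothelial and lymphocyte quiescence, had a shared dexamethasone-only site 12.4 kb upstream, from 74827614 to 74827671 on chromosome 8. It stood at 71.7 and 81.3 in wild type and at 73.5 and 89.5 in Klf15-/-. Only the Klf15-/- dexamethasone lists held a second site next to it, from 74826851 to 74826968 (81.6 and 38.9). The remaining Klf2 site, 74875865, was in the second Klf15-/- vehicle list alone (10.9).

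Klf5, a gene tied to proliferation of epithelial and smooth muscle cells, had a low-ranked site 0.99 kb from its approximate start, from 99699010 to 99699213 on chromosome 14. All 4 dexamethasone lists held it without a vehicle summit, at 35.6 and 13.7 in wild-type cells and 19.9 and 5.72 in Klf15-/-. A higher-ranked one, at 99773045 to 99773087, was at 71.2 and 81.8 in wild type, 77.8 and 80.7 in Klf15-/- and 70.8 in the wild-type vehicle list. The site at 99605201 to 99605367 was in both Klf15-/- dexamethasone lists (58.9 and 73.2) and had a pair of summits in the first Klf15-/- vehicle list (77.5 for the higher). No wild-type list held it. The others, at 99753101 and 99788719, were in at most 1 list of each genotype.

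Klf3, whose product is a CtBP-dependent repressor, had a site 79.3 kb downstream, from 65269300 to 65269540 on chromosome 5, in every list but the wild-type vehicle list. It stood at 65.2 and 55.9 in wild type and at 78.6 and 71.5 in Klf15-/- after dexamethasone, and at 60.1 and 45.7 with vehicle in Klf15-/-. The site at 65197581 to 65197629 ranked low, from 2.22 to 22.1, in 3 lists that included 1 vehicle list. RefSeq places Gm38457 and Tlr1 within 100 kb of Klf3.

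Klf4, the pluripotency factor gene, and Klf10, a TGF-β-induced gene, had no site that 3 dexamethasone lists held. Near Klf4, 55554672 to 55554708 on chromosome 4 was in all 3 wild-type lists and in no Klf15-/- list, at 66.6 with vehicle and at 15.9 and 38.1 with dexamethasone. The other Klf4 sites, at 55464755, 55502323 and 55577759, were in 1 Klf15-/- list each (18.2, 15.8 and 2.65). Near Klf10, 38253668 to 38253849 on chromosome 15 was in the wild-type vehicle list (43.7), the first Klf15-/- vehicle list (19.1) and the first wild-type dexamethasone list (31.9). Of the other Klf10 sites, those at 38280867, 38289137 and 38313925 were in 1 list each and that at 38174904 in 1 dexamethasone list of each genotype.

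**Figure D4:**
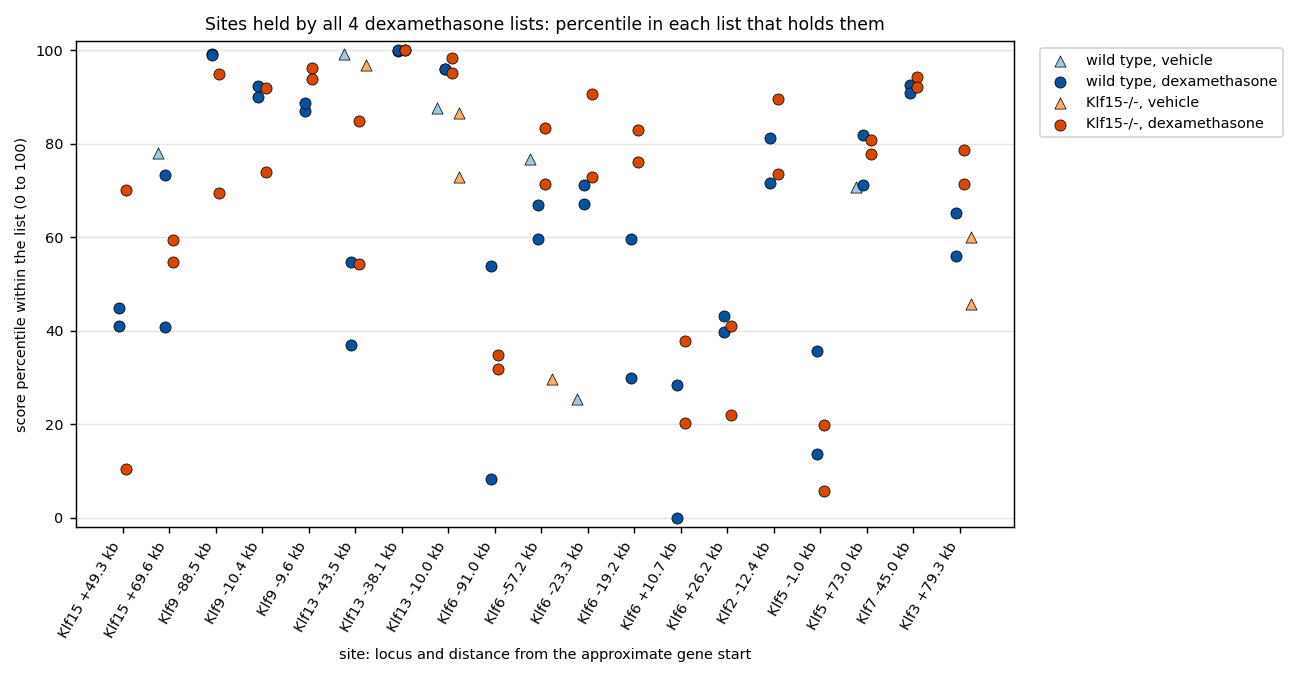
Score percentile (vertical axis) in each list that holds it, for the 19 sites that all 4 dexamethasone lists held (horizontal axis, signed distance in kb by mm9 coordinate). Circles are dexamethasone and triangles vehicle lists, blue wild type and orange Klf15-/-; the Klf13 site at -38.1 kb is at or above 99.87 in all 4 and has no triangle.

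Sites restricted to a genotype and without a vehicle summit came to 3 in each direction, shares near those of all sites. This leaves out the Klf4 site at 55554672 and the Klf5 site at 99605201, which had vehicle summits of their own genotype. Their nearest dexamethasone summits of the other genotype were 52349 and 42809 bp away. In both wild-type dexamethasone lists but no Klf15-/- dexamethasone list and no vehicle list were 3 of 65 sites (4.62%, against 2.93% of all sites). The reverse also held for 3 of 65 (4.62%, against 6.55%). The Klf15-/- dexamethasone lists were the longest. With every list held to its 7325 highest-scoring summits, the loci held 29 sites, of which 0 were Klf15-/- only and 2 wild-type only. Genome shares at equal length are not given here, so these counts have no background. The sites named next are those of the full lists. The wild-type only sites were 38258344 to 38258359 (33.0 and 69.2) and 38314281 to 38314472 (64.8 and 16.6) at Klf10, and 65267448 to 65267508 (12.2 and 10.0) at Klf3. The Klf15-/- only sites were 38258690 to 38258743 at Klf10 (80.8 and 56.7), 5869645 to 5869771 at Klf6 (42.2 and 7.92) and the second Klf2 site. These counts rested on both lists of a genotype: wild-type only sites were 7 and 5 without the first and the second wild-type list, and Klf15-/- only sites 8 and 12 without the first and the second Klf15-/- list. Wild-type only sites also came to 5 without the second Klf15-/- list, and Klf15-/- only sites to 5 without the first wild-type list.

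Most of these 6 sites without a vehicle summit had a summit of the other genotype close by. The first Klf10 wild-type only site and the Klf10 Klf15-/- only site were 331 bp apart, and neither class held them once summits up to 500 bp apart were joined. With a limit of 100 bp, 3 of the 6 sites left their class: those at Klf6 and Klf2 and the second Klf10 wild-type only site. The Klf2 and Klf6 sites had a wild-type dexamethasone summit at 646 and 936 bp, and the Klf3 site a Klf15-/- one at 1923 bp. Of these 6, only the second Klf10 wild-type only site was far from any dexamethasone summit of the other genotype, at 33414 bp. Chromosome 15, which carries Klf10, held 5.80% and 5.95% of the summits of the wild-type dexamethasone lists and 4.88% and 5.01% of the Klf15-/- ones, a ratio of Klf15-/- to wild type of 0.841. For chromosomes 8 (Klf2), 13 (Klf6) and 5 (Klf3) the ratio was 0.868, 0.945 and 1.05. The part of these chromosome shares in the genotype-restricted sites was not tested.

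The 12 shared dexamethasone-only sites covered nearly the whole range of ranks. By the list where each ranked lowest, their median percentile was 49.7, against 40.0 for all 2774 sites of this kind. Those of Klf13, Klf7, Klf9 and Klf2 were between 69.5 and 99.9, and those of Klf6, Klf15 and Klf5 between 0.0064 and 29.9. The locus summits as a whole had a median percentile of 54.7 and 40.8 in the wild-type and 44.0 and 51.7 in the Klf15-/- dexamethasone lists, where 50 is the middle of a list. With vehicle it was 70.8 in wild-type cells and 60.1 and 37.7 in Klf15-/-, from 11, 5 and 10 summits. Dexamethasone and vehicle lists overlapped in this measure, and the means differed by -8.38 (exact two-sided permutation test, p = 0.4, 4 lists against 3). With every list held to its 7325 highest-scoring summits the lists did not overlap: the medians were 39.5 to 58.0 after dexamethasone and 60.1 to 85.1 with vehicle, a difference of -20.2 (exact two-sided permutation test, p = 0.0571, the smallest possible). Without the wild-type vehicle list the difference over full lists was -1.08, and without the second Klf15-/- vehicle list -17.6.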

How the data were processed

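Glucocorticoid receptor ChIP-seq was deposited as 7 lists of peak summits, 1 per library, each with a 1 bp position and a score. This deposited score has no stated scale, and its lowest value per list was 3.01 to 3.38. Per the submitters' processing notes, CASAVA 1.4, Bowtie2 and SAMtools were used and the build was mm9. Peak caller, control and cut-off: not given in the sources used here. Read depth is unknown, so longer lists may be deeper ones. Gene starts were rounded to 10 kb, so distances are approximate by about that much. All 10 genes are described. Sites were named in full at Klf15, Klf9, Klf13 and Klf6; at the other 6 loci, the top 3 sites in at least 3 dexamethasone lists, genotype-only sites and sites in all lists, with the rest added for completeness. Genes, loci and lists were chosen with earlier results of these data known. Gene names and lengths came from RefSeq (GRCm38.p6), and all 10 symbols matched. Strand also came from RefSeq, and upstream or downstream follows that strand. For Klf5 and Klf10 no strand was at hand, so no side is given. Same-numbered libraries share only a number. Linking was tested on simulated lists of well-separated sites, which could not probe sites as close together as some of those here. Alternatives were other gaps, windows and points, higher-scoring summits, equal-length lists, each library left out and same-numbered pairs. Python 3.11.15, numpy 2.4.6, pandas 2.3.3 and matplotlib 3.10.9 were used.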

Additional observations from a re-analysis of the deposited data

Results flagged for a closer look

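At Klf3, summits per 1000 of the list changed with dexamethasone in one direction in wild type and in the other in Klf15-/-. The mean change was 0.153 in wild type, where both dexamethasone lists were above the vehicle list, and -0.117 in Klf15-/-, where both were below both vehicle lists. The difference was not tested, and it rests on 0 to 3 summits per list. In wild type, Klf3 summits numbered 0 with vehicle and 2 and 3 with dexamethasone. In Klf15-/- they numbered 1 and 2 with vehicle and again 1 and 2 with dexamethasone. The fall in Klf15-/- is thus one of share alone, in lists of 19999 and 20169 summits against 7325 and 8088 with vehicle. No group had enough lists for a check of a single list that lay far from the others.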

How the results depend on the processing

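Of 149 values recomputed, 121 were classed as unchanged and 28 as moved, and none reversed. A count was classed as moved if it changed more than 1.5-fold. Differences between dexamethasone and vehicle lists all kept their sign and were classed as unchanged, even where their size shifted more. An example is the median percentile difference, -20.2 in equal-length lists against -8.38. The excess of locus summits per 1000 after dexamethasone ranged from 0.793 to 1.67 over windows, points and list lengths, from 0.879 to 1.16 with each list left out and was 0.994 with the replicate block (3 same-numbered pairs, exact p = 0.25, the smallest it allows). With 50 kb windows, 42 sites and 1 wild-type only site were found; with 200 kb windows, which hold more sequence, 131 sites, 33 and 35 dexamethasone-only sites in wild type and Klf15-/-, 23 shared, 6 wild-type only, 7 Klf15-/- only and 5 in all lists. Summits above the median score gave 29 sites, with 9, 10 and 7 dexamethasone-only in wild type, Klf15-/- and both; equal-length lists gave 29, with 9, 8 and 7, and 0 Klf15-/- only. Leaving out each list gave 56 to 65 sites, 18 to 27 wild-type and 17 to 30 Klf15-/- dexamethasone-only sites, 12 to 15 shared, 3 to 7 wild-type only, 3 to 12 Klf15-/- only and 1 to 3 in all lists, at 7 loci; a group left with 1 list need not repeat its sites. Dexamethasone-only sites in Klf15-/- were 30 without the second and 26 without the first list of that group. Klf15-/- only sites were 12 without the second and 8 without the first Klf15-/- dexamethasone list; wild-type only sites were 7 without the first and 5 without the second wild-type one. Sites in all remaining lists were 3 without the first Klf15-/- vehicle list and 2 without the wild-type vehicle list. The median percentile difference ranged from -17.6 to -1.08 with each list left out and was -20.2 in equal-length lists (exact p = 0.0571, the smallest possible, as the dexamethasone and vehicle lists then did not overlap). The correlation of same-numbered deviations was 0.0004 to 0.005. Depth, which is unknown, limits whether a missing summit means missing binding.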
